A study of Mus musculus with 12 samples.

Results

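Tert encodes the protein that does the catalytic work of telomerase. Livers of mice without it were set against livers of wild-type (WT) mice, all after an injection of saline in place of the mutagen used elsewhere in the study. The 6 libraries are all of those labelled with the saline treatment, 3 from first-generation (G1) Tert-/- mice and 3 from WT mice, out of 12 in the series. The other 6 come from mice given N-ethyl-N-nitrosourea (ENU), an alkylating mutagen. Both groups carried the background C57BL/6/129/SvJ, were given saline into the peritoneum, were matched in age and had the liver removed after 24 h; the labels give no age in figures, no sex and no hour of the day. Whole liver was taken, so hepatocytes, Kupffer cells, sinusoidal endothelium, stellate cells and blood share each library. Of 49584 genes in the deposited table, 11794 reached 1 FPKM (mapped fragments scaled to transcript length and to library depth) in at least 3 of the 6 libraries and were tested. A gene under 1 FPKM in all 3 libraries of a group passed only if the other group reached 1 FPKM in all 3. This filter fixed the lack of overlap and the direction in advance for such genes. Among the genes named below, they include Tert, Arntl, Npas2, Loxl4, Ccl2 and, with WT low, Ccl22.

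Telomerase adds the telomere repeat to chromosome ends, copying it from the RNA template Terc, and in the first generation without Tert mice are known to keep long telomeres. The liver follows a molecular clock of about a day, in which the transcription factors ARNTL (BMAL1) and CLOCK or NPAS2 bind E-boxes and drive Per, Cry, Nr1d, Dbp and Ciart. The PER and CRY proteins repress ARNTL with its partner, NR1D1 and NR1D2 (REV-ERB alpha and beta) repress Arntl and Npas2 through ROR elements, on which RORA activates, and DBP, TEF and HLF act on D-boxes, where NFIL3 represses. Liver genes of lipid, glucose and bile acid metabolism are known to follow this clock.

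Replicate 2 of the Tert-/- livers stood apart, so each result is given with all 6 libraries and without it. That library had 31725120 reads counted in genes, against 35375500 to 43680374 in the other 5, and 17486 genes above 0, against 19637 to 20285. The top 20 genes by abundance held 29.53% of the reads there, and 20.22 to 21.69% elsewhere. Relative to the mean of the WT livers, the median gene was at a log2 difference of -0.53 in replicate 2, against -0.004 in replicate 1 and -0.01 in replicate 3, and the gap widened with transcript length: with genes split into 10 bins by length, the median was 0.44 in the bin of shortest transcripts (median 537.8 bases) and -1.10 in that of the longest (4028 bases). In replicates 1 and 3 the medians of the same bins lay at 0.17 and 0.06 for the shortest and at -0.18 and 0.05 for the longest.

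**Figure D1:**
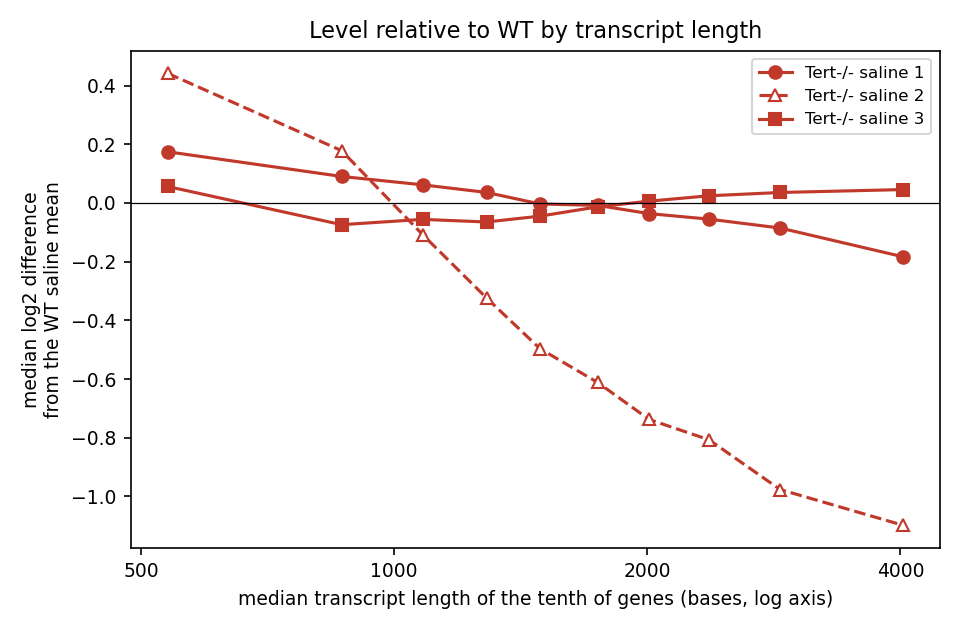
Median log2 difference of each Tert-/- saline library from the mean of the 3 WT saline libraries (y axis), for tested genes split into 10 bins by transcript length (x axis, bases, log axis). Replicate 2 (open triangles, dashed) falls from 0.44 in the shortest bin to -1.10 in the longest, while replicates 1 and 3 stay between -0.18 and 0.17.

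Tert itself (chromosome 13, 73627001 to 73649041, mm10) had 0.443, 0.304 and 0.734 FPKM in Tert-/- livers, against 3.18, 3.22 and 1.61 FPKM in WT livers. The groups did not overlap, but the filter had fixed this and the direction. Tert differed by -1.27 ± 0.25 with all 6 libraries (adjusted p = 0.147) and -1.18 ± 0.25 without replicate 2 (adjusted p = 0.0431). Here and below, ± is the standard error of the log2(FPKM + 1) difference. The values are over the whole gene, and between 33 and 431 reads lay behind each, so they do not say which exons the remaining reads came from.

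With all 6 libraries, limma with Benjamini-Hochberg adjustment over the 11794 genes put 1 gene past an adjusted p of 0.05. That gene was Arntl, which was lower in Tert-/- livers; calls in that direction made up 0.00848% of the genes tested and no gene was called higher (0%), while 1653 genes had an unadjusted p under 0.05. Leaving out any other single library gave 0 or 1 call, and Arntl passed in none of these 5 fits (adjusted p between 0.115 and 0.359). Without replicate 2, 253 genes were higher (2.15%) and 606 lower (5.14%) in Tert-/- livers, 859 in all (7.28%). Of those calls, 115 of the higher and 535 of the lower genes also had no overlap between all 3 Tert-/- and all 3 WT libraries. Over all genes tested, 6.64% were higher and 19.7% lower without overlap. The calls were made on 5 of the same 6 libraries, so their lack of overlap follows largely from that choice. It is no separate support for them, and the shares over all genes are not a like comparison. Replicate 2 lay on the same side of the WT mean as the other Tert-/- livers for 126 of the 253 higher and 557 of the 606 lower genes. These counts are to be read with the shift of that library. Its median gene lay at -0.53 from the WT mean, so a value below WT was common there, and the share over all genes was not counted. The median log2 difference over all genes tested was -0.19 with all 6 libraries and -0.01 without replicate 2, and each list below is to be read against these medians. Since Arntl was the only gene past the threshold with all 6 libraries, every other call described below was made without replicate 2. The labels do not state that each library came from its own animal, and if any did not, the p-values speak only of the spread among these libraries.

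**Figure D2:**
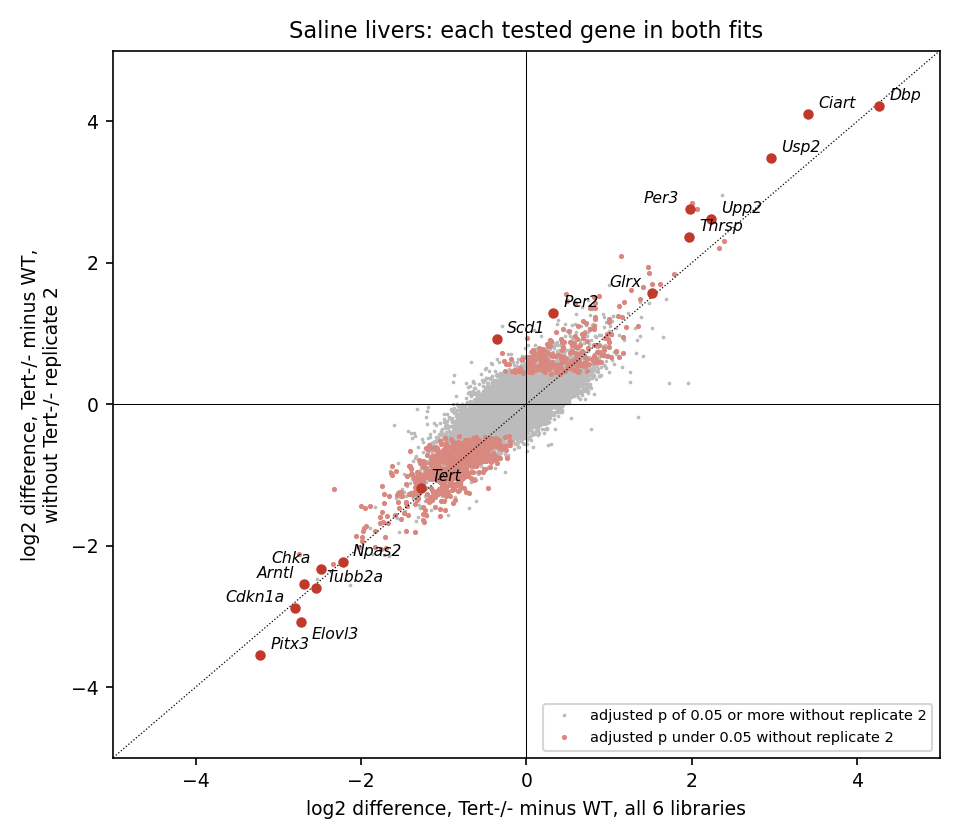
Log2 difference (Tert-/- minus WT) of each of the 11794 tested genes with all 6 libraries (x axis) and without Tert-/- replicate 2 (y axis); red points had an adjusted p under 0.05 without replicate 2, and the dotted line marks equal values. Clock genes lie at both ends, Dbp at 4.26 and 4.22 and Arntl at -2.68 and -2.54, while Per2 (0.32 and 1.29) and Scd1 (-0.36 and 0.92) lie well off the line.

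Clock genes were among those that differed most, in both directions. Of 21 core clock genes, all of them tested, 1 was lower and none higher with all 6 libraries; without replicate 2, 10 were higher and 3 lower, against 2.15% and 5.14% of all genes. The list's median was 0.28 with all 6 libraries and 0.69 without replicate 2. Genes driven through E-boxes and D-boxes were among those higher in Tert-/- livers, and the E-box activators Arntl, Npas2 and Clock were lower. The promoters of 3 genes called higher, of Arntl, which was called lower, and of Nfil3, which was called in neither fit, are printed here. They show which of these elements lie near the start sites, and come from RefSeq on GRCm38.p6, each running from 250 bases before the start site to 50 after it. Capitals mark the E-box letters CACGTG, the D-box letters TTATGTAA (searched with TTACGTAA) and the ROR element letters TAGGTCA, read on both strands, so that TGACCTA is the ROR element on the other strand.
Ciart, chr3:95882179-95882478, minus strand: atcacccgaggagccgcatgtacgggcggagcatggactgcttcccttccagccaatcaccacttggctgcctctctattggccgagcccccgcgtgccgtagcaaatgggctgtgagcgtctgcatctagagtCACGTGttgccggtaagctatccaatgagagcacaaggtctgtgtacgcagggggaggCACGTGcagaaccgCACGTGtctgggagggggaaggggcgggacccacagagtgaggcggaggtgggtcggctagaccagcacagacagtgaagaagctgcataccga
Per3, chr4:151044616-151044915, minus strand: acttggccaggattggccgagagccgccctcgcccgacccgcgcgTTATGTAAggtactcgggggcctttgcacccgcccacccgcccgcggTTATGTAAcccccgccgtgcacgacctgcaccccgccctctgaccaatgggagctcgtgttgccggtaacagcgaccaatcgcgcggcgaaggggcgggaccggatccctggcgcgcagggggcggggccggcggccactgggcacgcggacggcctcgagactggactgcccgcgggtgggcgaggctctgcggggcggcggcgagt
Tef, chr15:81802423-81802722, plus strand: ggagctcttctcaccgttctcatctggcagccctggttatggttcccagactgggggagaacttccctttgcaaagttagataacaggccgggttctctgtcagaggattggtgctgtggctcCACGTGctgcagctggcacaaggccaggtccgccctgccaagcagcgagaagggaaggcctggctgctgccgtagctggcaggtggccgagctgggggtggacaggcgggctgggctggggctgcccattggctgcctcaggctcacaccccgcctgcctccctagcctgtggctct
Arntl, chr7:113207261-113207560, plus strand: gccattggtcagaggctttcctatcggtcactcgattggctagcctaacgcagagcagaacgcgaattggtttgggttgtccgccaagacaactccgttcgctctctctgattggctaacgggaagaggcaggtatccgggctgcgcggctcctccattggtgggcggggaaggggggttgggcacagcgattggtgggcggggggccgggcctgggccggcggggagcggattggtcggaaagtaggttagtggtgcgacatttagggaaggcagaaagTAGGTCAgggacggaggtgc
Nfil3, chr13:52980990-52981289, minus strand: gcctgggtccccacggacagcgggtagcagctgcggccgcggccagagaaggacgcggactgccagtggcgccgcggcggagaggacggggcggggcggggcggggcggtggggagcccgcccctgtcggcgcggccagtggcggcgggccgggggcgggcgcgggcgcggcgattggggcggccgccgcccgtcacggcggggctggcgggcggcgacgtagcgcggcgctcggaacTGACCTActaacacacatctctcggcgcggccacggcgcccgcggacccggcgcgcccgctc

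The Ciart promoter held 3 E-boxes, with first bases at -116, -58 and -44 from the start site. The Per3 promoter held 2 D-boxes, at -205 and -158, and the Tef promoter printed an E-box at -127. Another Tef window, chr15:81811164-81811463, held an E-box at -138. An ROR element began at 31 bases after the start in the Arntl window printed and at -12 in Nfil3; Arntl has a second window in the table, chr7:113207215-113207514, which held none. Of 17 core clock genes with a promoter in the table, 5 held an E-box in at least 1 of their windows (Bhlhe41, Ciart, Cry1, Per1 and Tef), 1 a D-box (Per3) and 2 an ROR element (Arntl and Nfil3). Over all 32851 promoters of the same length, 7.15% held the E-box letters, 1.06% the D-box letters and 2.61% the ROR element letters. These shares count single windows, whereas the clock gene counts take any window of a gene, so the units differ. The window of Dbp held none of them, which says only that these letters are not in those 300 bases.

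Among the activators, Arntl (chromosome 7, 113207465 to 113314126) had 0.744, 0.264 and 0.636 FPKM in Tert-/- livers, against 9.63, 7.803 and 9.22 FPKM in WT livers. Every Tert-/- library lay far below every WT library, replicate 2 lowest, and Arntl fell by either fit: -2.68 ± 0.22 with all 6 libraries (adjusted p = 0.0405) and -2.54 ± 0.14 without replicate 2 (adjusted p = 0.00819). The filter had fixed the lack of overlap and the direction of Arntl, though not the size of its difference. Npas2 (chromosome 1, 39193731 to 39363236), the paralog of Clock that can take its place, was near 0 without Tert, with 0.0157, 0.09105 and 0.114 FPKM in Tert-/- livers, against 4.29, 2.93 and 5.03 FPKM in WT livers. Its groups did not overlap, which the filter had fixed along with the direction. Npas2 differed by -2.22 ± 0.21 with all 6 libraries (adjusted p = 0.0503) and -2.23 ± 0.21 without replicate 2 (adjusted p = 0.0109). Clock had 5.22, 1.62 and 7.23 FPKM in Tert-/- livers, against 10.3, 11.2 and 10.97 FPKM in WT livers. It fell without replicate 2 (-0.72 ± 0.15 without replicate 2, adjusted p = 0.0408, and -1.21 with it, adjusted p = 0.2705), and replicate 2 lay furthest below WT.

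Of the D-box activators, Dbp (chromosome 7, 45705088 to 45710203) had 65.6, 82.8 and 86.7 FPKM in Tert-/- livers, against 1.45, 8.67 and 1.92 FPKM in WT livers. All 3 Tert-/- libraries were alike and the highest WT library, replicate 2, was still far below them; Dbp differed by 4.26 ± 0.50 with all 6 libraries (adjusted p = 0.0572) and 4.22 ± 0.56 without replicate 2 (adjusted p = 0.0168). Tef had 174, 71.9 and 218 FPKM in Tert-/- livers, against 51.7, 66.4 and 35.96 FPKM in WT livers, with replicate 2 just above the highest WT library, and differed by 1.47 ± 0.43 with all 6 libraries (adjusted p = 0.219) and 1.95 ± 0.25 without replicate 2 (adjusted p = 0.0158). Hlf had 26.9, 6.99 and 33.8 FPKM in Tert-/- livers, against 18.7, 17.3 and 17.2 FPKM in WT livers. It rose without replicate 2 (0.74 ± 0.13 without replicate 2, adjusted p = 0.0289, and 0.08 with it, adjusted p = 0.949), whereas replicate 2 itself lay below every WT library. Nfil3, the repressor on the same sites, was lower in every Tert-/- library, at 18.7, 18.1 and 7.45 FPKM in Tert-/- livers, against 34.7, 28.7 and 34.2 FPKM in WT livers, and did not pass the threshold (-1.37 ± 0.33 without replicate 2, adjusted p = 0.0541, and -1.19 with it, adjusted p = 0.219).

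Ciart (CHRONO, a repressor of ARNTL and its partner) had 27.2, 7.097 and 42.8 FPKM in Tert-/- livers, against 2.27, 0.526 and 0.702 FPKM in WT livers. Its groups did not overlap, replicate 2 being the lowest of the Tert-/- livers, and it differed by 3.40 ± 0.62 with all 6 libraries (adjusted p = 0.137) and 4.11 ± 0.36 without replicate 2 (adjusted p = 0.0109). Per3 had 13.5, 2.26 and 18.2 FPKM in Tert-/- livers, against 1.302, 2.27 and 0.988 FPKM in WT livers. Replicate 2 fell among the WT values while the other Tert-/- libraries were well above them, and Per3 differed by 1.97 ± 0.63 with all 6 libraries (adjusted p = 0.246) and 2.76 ± 0.24 without replicate 2 (adjusted p = 0.0109). Per2 had 17.1, 1.36 and 16.5 FPKM in Tert-/- livers, against 5.803, 6.85 and 6.15 FPKM in WT livers. Replicate 2 was the lowest of all 6 libraries for Per2, which differed by 0.32 ± 0.74 with all 6 libraries (adjusted p = 0.8497) and 1.29 ± 0.12 without replicate 2 (adjusted p = 0.0109). Per1 overlapped between the groups (12.6, 8.18 and 11.05 FPKM in Tert-/- livers, 16.4, 4.94 and 3.52 FPKM in WT livers). Cry2 rose without replicate 2 (0.69 ± 0.12 without replicate 2, adjusted p = 0.0282, and 0.42 with it, adjusted p = 0.508) and Bhlhe41 (DEC2, a repressor at E-boxes) did too (1.39 ± 0.20 without replicate 2, adjusted p = 0.0207, and 1.13 with it, adjusted p = 0.179), with Bhlhe41 higher in every Tert-/- library.

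Of the REV-ERB repressors, which act on ROR elements, Nr1d2 had 38.4, 10.4 and 40.1 FPKM in Tert-/- livers, against 12.8, 18.3 and 11.4 FPKM in WT livers, and rose without replicate 2 (1.44 ± 0.19 without replicate 2, adjusted p = 0.0175, and 0.83 with it, adjusted p = 0.488), which lay below every WT library. Nr1d1 overlapped, with 16.1, 39.05 and 37.6 FPKM in Tert-/- livers, against 17.4, 24.02 and 31.1 FPKM in WT livers. Rora overlapped and differed by 0.25 without and -0.38 with replicate 2.

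**Figure D3:**
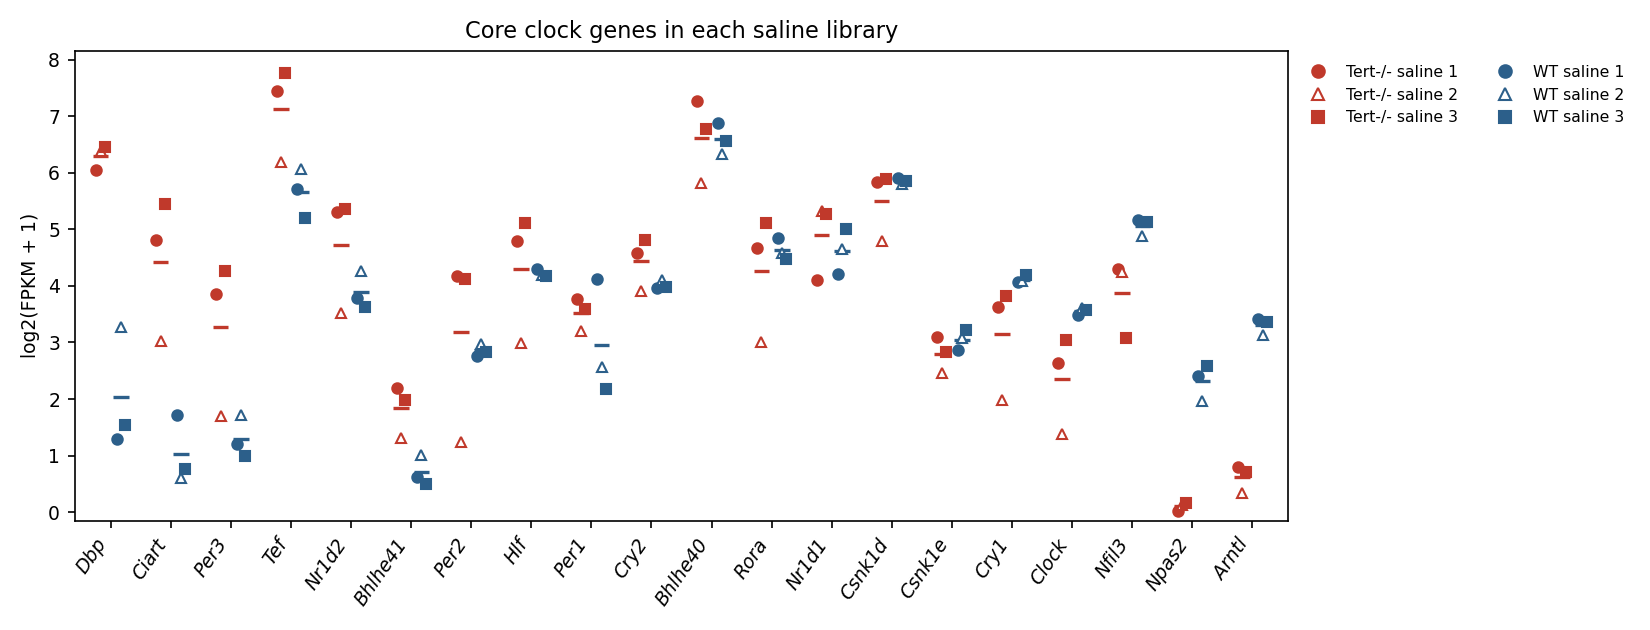
Level of 20 of the 21 core clock genes, as log2(FPKM + 1) on the y axis, in the 3 Tert-/- saline libraries (red, left of each pair) and the 3 WT saline libraries (blue, right); bars mark group means and open triangles replicate 2 of each group. Dbp and Ciart are high and Npas2 and Arntl low in every Tert-/- library, while replicate 2 of the Tert-/- livers drops to or below the WT values for Per3, Nr1d2, Per2, Hlf and Rora.

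The ratio of Dbp to Arntl put these opposite changes in a single number for each library. On a log2 scale with a pseudocount of 1 it was 5.26, 6.05 and 5.75 in the Tert-/- saline livers, against -2.12, 0.14 and -1.81 in the WT saline livers, a difference of 6.95 (exact permutation test, two-sided p = 0.1, the smallest that 3 libraries against 3 allow). Without replicate 2 the difference was 6.76 (exact permutation p = 0.2, again the smallest possible). Both genes were in the list because of earlier results, and each separated the same groups, in opposite directions. Their ratio had to separate the groups as well, so both p-values were fixed in advance and carry no support. The ratio only describes the libraries. In the ENU libraries of the same study the ratio was 4.08, 3.05 and 5.19 in Tert-/- livers, against -0.52, 4.15 and 4.17 in WT livers, so 2 of 3 WT libraries there lay within the Tert-/- range. The hour at which each liver was taken is not given in the sources used here, and its part in the result was not tested.

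Genes known to follow the liver clock moved in both directions. Of 22 tested, none passed with all 6 libraries and 6 were higher and 5 lower without replicate 2, against 2.15% and 5.14% of all genes; the median was 0.08 with all 6 libraries and 0.27 without replicate 2. Usp2, a deubiquitinating enzyme with a strong daily rhythm in liver, had 38.5, 13.7 and 47.8 FPKM in Tert-/- livers, against 4.59, 2.396 and 2.21 FPKM in WT livers. The groups did not overlap and Usp2 differed by 2.95 ± 0.47 with all 6 libraries (adjusted p = 0.0908) and 3.48 ± 0.26 without replicate 2 (adjusted p = 0.0109). Upp2, a uridine phosphorylase, had 263, 187 and 669.5 FPKM in Tert-/- livers, against 62.6, 73.9 and 66.3 FPKM in WT livers. There was no overlap, and Upp2 differed by 2.23 ± 0.44 with all 6 libraries (adjusted p = 0.146) and 2.62 ± 0.36 without replicate 2 (adjusted p = 0.0178). Coq10b, which binds coenzyme Q, rose without replicate 2 (1.61 without and 1.27 with replicate 2), and so did Nampt, the rate-limiting enzyme of NAD salvage (1.03 without and 0.52 with replicate 2). On the other side, Elovl3, an elongase of very long chain fatty acids, had 22.4, 43.7 and 18.3 FPKM in Tert-/- livers, against 183, 125 and 252 FPKM in WT livers. Every Tert-/- library was below every WT library and Elovl3 differed by -2.73 ± 0.38 with all 6 libraries (adjusted p = 0.0774) and -3.08 ± 0.28 without replicate 2 (adjusted p = 0.0109). Avpr1a, the hepatic vasopressin receptor, had 8.82, 5.28 and 9.48 FPKM in Tert-/- livers, against 25.98, 27.9 and 30.6 FPKM in WT livers. The groups of Avpr1a did not overlap and it differed by -1.75 ± 0.25 with all 6 libraries (adjusted p = 0.0821) and -1.52 ± 0.12 without replicate 2 (adjusted p = 0.0109). The melatonin receptor Mtnr1a (-1.21 without and -1.14 with replicate 2), Leo1 of the PAF1 complex (-0.96 without and -1.06 with replicate 2) and the activin subunit Inhba (-0.92 without and -1.39 with replicate 2) also fell without replicate 2.

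Outside the clock, the genes higher in Tert-/- livers by the lowest p-values with all 6 libraries were enzymes and immune genes, none of them past the threshold in that fit and all of them past it without replicate 2. Ccl22, a chemokine that attracts cells bearing CCR4, had 2.42, 2.11 and 2.17 FPKM in Tert-/- livers, against 0.154, 0.0892 and 0.157 FPKM in WT livers. Each Tert-/- library was above each WT library, on few reads in WT livers (as few as 4), and Ccl22 differed by 1.51 ± 0.16 with all 6 libraries (adjusted p = 0.0518) and 1.54 ± 0.16 without replicate 2 (adjusted p = 0.0125). That separation was fixed by the filter, since every WT value of Ccl22 was under 1 FPKM. Cyp2a5, a coumarin hydroxylase of the cytochrome P450 family, had 742, 900.2 and 1385 FPKM in Tert-/- livers, against 238, 266 and 350.5 FPKM in WT livers. The groups of Cyp2a5 did not overlap and it differed by 1.79 ± 0.28 with all 6 libraries (adjusted p = 0.0844) and 1.85 ± 0.29 without replicate 2 (adjusted p = 0.02495). Fdx1, the mitochondrial ferredoxin that passes electrons to mitochondrial P450 enzymes, had 116, 122 and 102 FPKM in Tert-/- livers, against 58.6, 58.8 and 52.7 FPKM in WT livers. Fdx1 was alike within each group and differed by 0.98 ± 0.17 with all 6 libraries (adjusted p = 0.124) and 0.92 ± 0.11 without replicate 2 (adjusted p = 0.0148). Akr1c19, an aldo-keto reductase, had 85.04, 82.7 and 85.6 FPKM in Tert-/- livers, against 40.9, 35.7 and 52.04 FPKM in WT livers. There was no overlap, and Akr1c19 differed by 0.98 ± 0.20 with all 6 libraries (adjusted p = 0.149) and 0.99 ± 0.16 without replicate 2 (adjusted p = 0.0268). H2-Bl, a class I gene of the major histocompatibility complex, had 3.48, 2.57 and 4.91 FPKM in Tert-/- livers, against 1.12, 0.341 and 0.4002 FPKM in WT livers. The groups of H2-Bl did not overlap and it differed by 1.52 ± 0.28 with all 6 libraries (adjusted p = 0.136) and 1.70 ± 0.25 without replicate 2 (adjusted p = 0.02103). Cyp2a5, Akr1c19 and H2-Bl belong to families of near-identical genes, so reads may be shared between copies and their values are uncertain.

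Rgs16 and Hcn3 were among the 10 genes with the largest increases without replicate 2. Rgs16, which shortens signalling by G proteins, had 33.1, 4.27 and 26.3 FPKM in Tert-/- livers, against 7.79, 1.09 and 3.18 FPKM in WT livers; the groups overlapped through replicate 2 and the difference was 2.0 ± 0.79 with all 6 libraries (adjusted p = 0.326) and 2.84 ± 0.53 without replicate 2 (adjusted p = 0.0333). Hcn3, a cation channel subunit, had 53.2, 7.6 and 24.9 FPKM in Tert-/- livers, against 6.35, 4.52 and 3.11 FPKM in WT livers. There was no overlap, and Hcn3 differed by 2.06 ± 0.62 with all 6 libraries (adjusted p = 0.235) and 2.77 ± 0.35 without replicate 2 (adjusted p = 0.0153). Hcn3 (chromosome 3, 89146074 to 89160196) overlaps the more abundant Pklr (89136142 to 89146784), so reads may be shared and its value is uncertain. Both were highest in replicate 1 and lowest in replicate 2 of the Tert-/- livers, while their order in WT livers differed.

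The genes lower in Tert-/- livers by the same rule lay well below WT in every Tert-/- library, replicate 2 included. Tubb2a, a beta tubulin, had 19.7, 17.3 and 11.9 FPKM in Tert-/- livers, against 94.6, 83.2 and 120.4 FPKM in WT livers. Its groups lay far apart and it differed by -2.55 ± 0.25 with all 6 libraries (adjusted p = 0.0503) and -2.60 ± 0.24 without replicate 2 (adjusted p = 0.0109). Chka, choline kinase alpha, had 13.6, 9.31 and 12.3 FPKM in Tert-/- livers, against 64.3, 49.7 and 104 FPKM in WT livers. The groups of Chka did not overlap and it differed by -2.48 ± 0.30 with all 6 libraries (adjusted p = 0.0616) and -2.33 ± 0.28 without replicate 2 (adjusted p = 0.0141). Clpx, the unfoldase of the mitochondrial ClpXP protease, had 41.8, 25.5 and 37.96 FPKM in Tert-/- livers, against 155, 123 and 135 FPKM in WT livers. It did not overlap either and differed by -1.96 ± 0.23 with all 6 libraries (adjusted p = 0.0572) and -1.75 ± 0.13 without replicate 2 (adjusted p = 0.0109). Pitx3, a homeobox transcription factor known mainly from lens and midbrain, had 0.2298, 1.42 and 0.1996 FPKM in Tert-/- livers, against 15.9, 7.49 and 19.1 FPKM in WT livers. The groups of Pitx3 did not overlap and it differed by -3.22 ± 0.41 with all 6 libraries (adjusted p = 0.06704) and -3.55 ± 0.35 without replicate 2 (adjusted p = 0.0109). Pitx3 (chromosome 19, 46135685 to 46148326) lies beside the more abundant Elovl3 (46131897 to 46135307). The 2 genes had the same order of libraries within each saline group. Whether their changes are separate was not tested. Loxl4, a lysyl oxidase that cross-links collagen, had 0.329, 0.239 and 0.558 FPKM in Tert-/- livers, against 3.12, 3.66 and 3.93 FPKM in WT livers. The groups of Loxl4 did not overlap, which the filter had fixed along with the direction. It differed by -1.74 ± 0.19 with all 6 libraries (adjusted p = 0.0535) and -1.66 ± 0.16 without replicate 2 (adjusted p = 0.0109). All 5 of these genes passed the threshold without replicate 2 and none with all 6 libraries.

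A further 6 genes met the same rule: St5 (DENND2B, an exchange factor for Rab proteins), Abtb2, Pnrc1 (a nuclear receptor coactivator), Mpzl1, Acnat2 (an acyl transferase) and, among those named without replicate 2, Clic3. None of the 6 overlapped between the groups. Without replicate 2 their log2 differences lay between -2.26 and -1.56. The ends of that range were Mpzl1 (1.81, 1.48 and 1.39 FPKM in Tert-/- livers, against 7.14, 5.77 and 7.14 FPKM in WT livers) and Clic3 (0.825, 0.828 and 1.56 FPKM in Tert-/- livers, against 7.13, 6.77 and 16.5 FPKM in WT livers). Irf2bp2, a repressor that partners IRF2, had 15.02, 9.51 and 5.904 FPKM in Tert-/- livers, against 54.7, 26.5 and 50.2 FPKM in WT livers. Each Tert-/- value of Irf2bp2 was below each WT value, and it fell without replicate 2 (-2.02 ± 0.42 without replicate 2, adjusted p = 0.0413, and -2.03 with it, adjusted p = 0.146). Acnat2 shares sequence with its neighbour Acnat1, so its reads may be split between copies.

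Immediate early genes, which respond within minutes to growth factors and stress, were mostly on the lower side. With all 6 libraries 7 of 24 tested had a positive difference, near the share of all genes (3716 of 11794). Without replicate 2, 4 of the 24 did, against 5813 of the 11794. None was called higher in that fit and 3 lower, against 2.15% and 5.14% of all genes. The list's median was -0.67 with all 6 libraries and -0.62 without replicate 2. No overlap with a lower Tert-/- group was seen for 10 of the 24, against 19.7% of all genes. Klf2, which laminar flow induces in endothelium, had 4.35, 5.26 and 2.27 FPKM in Tert-/- livers, against 20.7, 12.2 and 15.9 FPKM in WT livers. The groups of Klf2 did not overlap and it differed by -1.83 ± 0.32 with all 6 libraries (adjusted p = 0.124) and -2.02 ± 0.27 without replicate 2 (adjusted p = 0.0176). Ier5 (-1.06 ± 0.21 without replicate 2, adjusted p = 0.0369, and -1.14 with it, adjusted p = 0.156) and Srf, the serum response factor (-0.71 ± 0.14 without replicate 2, adjusted p = 0.0369, and -0.73 with it, adjusted p = 0.206), were the other 2 that fell without replicate 2. Fos and Egr1 varied widely within WT livers: Egr1 had 10.1, 7.58 and 4.11 FPKM in Tert-/- livers, against 70.03, 2.17 and 26.1 FPKM in WT livers, and WT replicate 2 was the lowest of all 6.

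Cdkn1a, which encodes the cell cycle inhibitor p21 and is the best known target of p53, was at 1.18, 1.43 and 0.917 FPKM in Tert-/- livers, against 32.5, 4.699 and 17.03 FPKM in WT livers. The groups did not overlap but the WT libraries spread widely, and Cdkn1a differed by -2.80 ± 0.59 with all 6 libraries (adjusted p = 0.156) and -2.89 ± 0.66 without replicate 2 (adjusted p = 0.04996), just past the threshold in the second case. It was the only one of 29 tested p53 targets to pass by either fit; the list's median was -0.22 with all 6 libraries and -0.02 without replicate 2. Of 13 tested proliferation genes, Rrm2, a subunit of ribonucleotide reductase, rose without replicate 2 (1.36 ± 0.15 without replicate 2, adjusted p = 0.0134, and 0.83 with it, adjusted p = 0.437), with 9.19, 2.41 and 9.33 FPKM in Tert-/- livers, against 3.43, 2.48 and 3.12 FPKM in WT livers, and Mcm3, of the replicative helicase, fell (-0.61 ± 0.13 without replicate 2, adjusted p = 0.0444, and -0.91 with it, adjusted p = 0.242). In Rrm2, replicate 2 was the lowest of the 6 libraries. Shares over all genes without replicate 2 were 2.15% higher and 5.14% lower, and a single call in a direction is no result about either list.

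Markers of the cells around the hepatocytes were lower in Tert-/- livers, and among the lists with at least 5 tested members those of Kupffer cells, the resident macrophages, had the lowest median. All 14 Kupffer cell markers had negative differences in both fits, none past the threshold with all 6 libraries and 9 past it without replicate 2, against 5.14% of all genes lower; the median was -1.05 with all 6 libraries and -1.26 without replicate 2. Their summed level was 265, 516 and 215 FPKM in Tert-/- livers, against 583, 751 and 422 FPKM in WT livers. Replicate 2 lay between the WT libraries, and the other Tert-/- libraries lay below all of them. C1qc, a subunit of complement C1q, had 31.5, 56.8 and 23.5 FPKM in Tert-/- livers, against 91.6, 94.7 and 64.2 FPKM in WT livers. The groups did not overlap, and C1qc differed by -1.22 ± 0.34 with all 6 libraries (adjusted p = 0.208) and -1.56 ± 0.21 without replicate 2 (adjusted p = 0.01697). Csf1r, the receptor that macrophages need to survive, had 5.74, 9.66 and 6.53 FPKM in Tert-/- livers, against 15.3, 20.9 and 12.1 FPKM in WT livers. The groups of Csf1r did not overlap and it differed by -1.03 ± 0.28 with all 6 libraries (adjusted p = 0.206) and -1.23 ± 0.22 without replicate 2 (adjusted p = 0.0294). C1qa had 41.6, 97.6 and 27.9 FPKM in Tert-/- livers, against 92.9, 111 and 68.1 FPKM in WT livers. Replicate 2 lay among the WT values there and above all of them for C1qb, and both genes fell without it (C1qa -1.36 without and -0.86 with replicate 2, C1qb -1.26 without and -0.69 with replicate 2). Clec4f, a lectin largely limited to Kupffer cells in mice, had 48.7, 120.4 and 48.3 FPKM in Tert-/- livers, against 97.3, 115 and 76.4 FPKM in WT livers, and replicate 2 was the highest of all. In whole-liver RNA, fewer cells of a type and less RNA per cell cannot be told apart.

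Class II genes of the major histocompatibility complex, used by antigen-presenting cells, were lower too. All 6 tested had negative differences in both fits and 4 fell without replicate 2, against 5.14% of all genes lower, with a median of -0.84 with all 6 libraries and -1.17 without replicate 2. H2-Ab1 had 30.8, 40.2 and 14.04 FPKM in Tert-/- livers, against 53.1, 61.98 and 76.2 FPKM in WT livers. Every Tert-/- library was below every WT library and H2-Ab1 differed by -1.25 ± 0.38 with all 6 libraries (adjusted p = 0.232) and -1.55 ± 0.31 without replicate 2 (adjusted p = 0.0382). Cd74, the invariant chain, had 25.99, 54.8 and 13.3 FPKM in Tert-/- livers, against 39.5, 55.4 and 58.7 FPKM in WT livers, with replicate 2 among the WT values, and fell without it (-1.39 ± 0.29 without replicate 2, adjusted p = 0.0413, and -0.89 with it, adjusted p = 0.436). H2-DMa (-1.16 without and -0.79 with replicate 2) and H2-DMb1 (-1.03 without and -0.93 with replicate 2) fell without it too.

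Sinusoidal endothelial markers were lower as well, with negative differences for all 16 in both fits, 6 past the threshold without replicate 2, against 5.14% of all genes lower, and a median of -0.69 with all 6 libraries and -0.63 without replicate 2. Bmp2, an endothelial signal that raises hepatocyte hepcidin, had 3.68, 2.83 and 3.01 FPKM in Tert-/- livers, against 12.3, 10.4 and 8.69 FPKM in WT livers. It did not overlap and differed by -1.45 ± 0.22 with all 6 libraries (adjusted p = 0.0834) and -1.39 ± 0.17 without replicate 2 (adjusted p = 0.0139). Cdh5 (VE-cadherin) had 5.57, 4.31 and 7.66 FPKM in Tert-/- livers, against 17.6, 18.4 and 12.7 FPKM in WT livers. The groups of Cdh5 did not overlap and it differed by -1.34 ± 0.26 with all 6 libraries (adjusted p = 0.147) and -1.18 ± 0.20 without replicate 2 (adjusted p = 0.0274). Eng (endoglin) and Oit3 fell without replicate 2 (Eng -0.96 without and -0.64 with replicate 2, Oit3 -0.70 without and -0.80 with replicate 2), and for Eng replicate 2 lay among the WT values. The summed level of the list was 161, 237 and 192 FPKM in Tert-/- livers, against 286, 314 and 263 FPKM in WT livers, without overlap. Stellate cell and fibroblast markers were all negative too (13 tested, 3 lower without replicate 2), and Reln, a stellate cell marker, had 7.201, 4.36 and 7.87 FPKM in Tert-/- livers, against 14.1, 17.1 and 13.4 FPKM in WT livers. Each Tert-/- value of Reln was below each WT value, and it fell without replicate 2 (-0.89 ± 0.14 without replicate 2, adjusted p = 0.0246, and -1.11 with it, adjusted p = 0.1702).

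Rarer cells gave less to test. Of 19 markers of T and B lymphocytes and NK cells, 4 were expressed enough to be tested; their summed level was 37.4, 15.2 and 7.35 FPKM in Tert-/- livers, against 76.9, 54.3 and 16.6 FPKM in WT livers, overlapping, and none passed. Of 12 neutrophil markers, 3 were tested, with a summed level of 5.89, 10.6 and 1.43 FPKM in Tert-/- livers, against 33.7, 36.5 and 6.16 FPKM in WT livers, and none passed. None of the 11 cholangiocyte markers passed, of which 5 were tested. Erythroid genes were highest in replicate 2: Hba-a1, an alpha globin with a near-identical copy, had 30.4, 244 and 53.6 FPKM in Tert-/- livers, against 41.5, 96.4 and 53.96 FPKM in WT livers, and the list's median was 0.18 with all 6 libraries and -0.29 without replicate 2. No marker of Kupffer cells, endothelium, stellate cells, cholangiocytes, lymphocytes or neutrophils was at 0 in all 6 libraries, whereas 8 of 18 markers of pancreas, fat and muscle were. Of those 18, 3 were tested, among them Car3 (1325 to 2291 FPKM over the 6 libraries) and Cela1 (14.4 to 37.5 FPKM). The list as a whole was thus not absent. Hepatocyte markers were high in every library: Alb (albumin) had 41133, 65864 and 59968 FPKM in Tert-/- livers, against 37513, 48036 and 56072 FPKM in WT livers. Of 29 hepatocyte markers tested, none was higher and 2 were lower without replicate 2, against 2.15% and 5.14% of all genes. Trf (transferrin) was among the 2. In Tert-/- replicate 2 it had 708 FPKM, above every WT library (454 to 564 FPKM). The part that these cell type markers had in other differences was not tested.

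**Figure D4:**
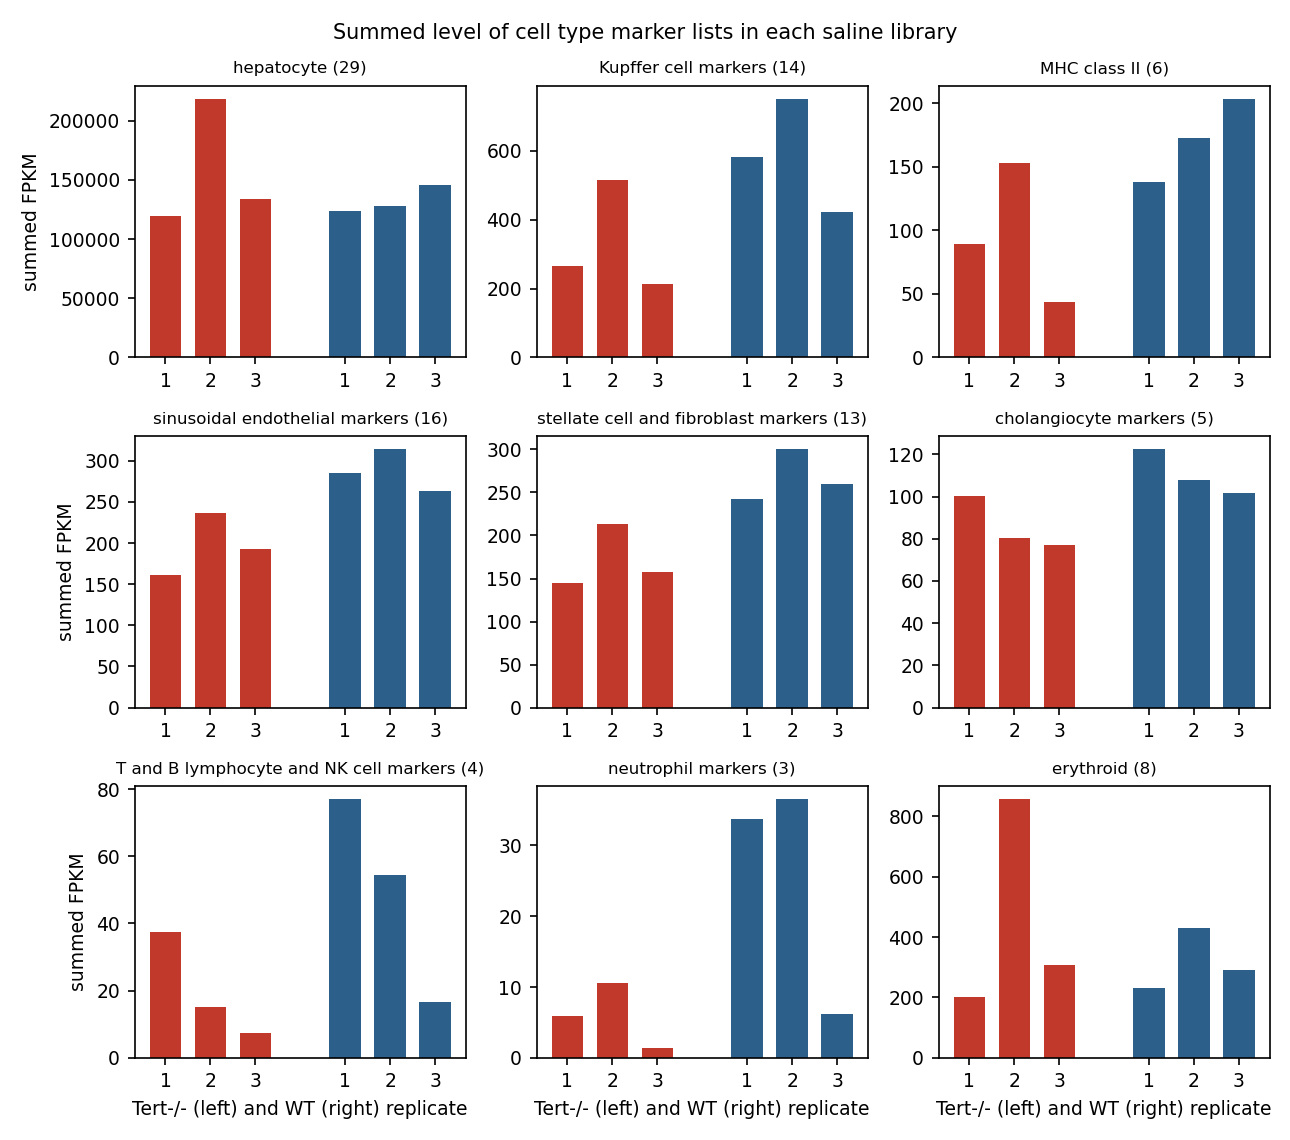
Summed FPKM of the tested members of 9 marker lists in each saline library, with the 3 Tert-/- libraries (red) left of the 3 WT libraries (blue) and the number of members in brackets; axes start at 0. Kupffer cell markers sum to 265, 516 and 215 FPKM in Tert-/- livers and 583, 751 and 422 FPKM in WT livers, and replicate 2 of the Tert-/- livers is highest for hepatocyte and erythroid genes.

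Some iron handling genes were lower too. Of 21 tested, none was higher and 4 were lower without replicate 2, against 2.15% and 5.14% of all genes. Without overlap 9 were lower, against 19.7% of all genes, and the median was -0.38 with all 6 libraries and -0.32 without replicate 2. Bmp6, the endothelial signal that sets hepcidin by iron load, had 1.25, 0.8501 and 1.72 FPKM in Tert-/- livers, against 4.37, 5.02 and 5.39 FPKM in WT livers. The groups did not overlap and Bmp6 differed by -1.40 ± 0.22 with all 6 libraries (adjusted p = 0.0883) and -1.26 ± 0.16 without replicate 2 (adjusted p = 0.0148). Hamp itself, which encodes hepcidin, had 1496, 1903 and 1843 FPKM in Tert-/- livers, against 2274, 2439 and 1968 FPKM in WT livers, without overlap, and did not pass (-0.42 ± 0.18 without replicate 2, adjusted p = 0.1803, and -0.35 with it, adjusted p = 0.472). Its close copy Hamp2 had 8.22, 9.26 and 137 FPKM in Tert-/- livers, against 2.995, 4.16 and 3.63 FPKM in WT livers, with replicate 3 far above the rest, and did not pass either (2.96 ± 0.98 without replicate 2, adjusted p = 0.107, and 2.36 with it, adjusted p = 0.338); reads may be shared between the copies. Steap3, Slc11a2 and Trf were the other 3 that fell without replicate 2.

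Of 22 fatty acid synthesis genes tested, 4 were higher and none lower without replicate 2, against 2.15% and 5.14% of all genes, and in 3 of the 4 replicate 2 was the lowest library. The list's median was -0.08 with all 6 libraries and 0.29 without replicate 2. Thrsp (Spot 14), a regulator of lipogenesis, had 1779.7, 598 and 1017 FPKM in Tert-/- livers, against 238, 224 and 334 FPKM in WT livers. It was the one of the 4 whose groups did not overlap with all 6 libraries, and it differed by 1.97 ± 0.39 with all 6 libraries (adjusted p = 0.149) and 2.36 ± 0.28 without replicate 2 (adjusted p = 0.0139). Scd1, the stearoyl-CoA desaturase, had 2610.2, 162 and 2044 FPKM in Tert-/- livers, against 1128, 1422 and 1136 FPKM in WT livers. Replicate 2 was far below every other library, and Scd1 differed by -0.36 ± 0.96 with all 6 libraries (adjusted p = 0.872) and 0.92 ± 0.19 without replicate 2 (adjusted p = 0.0393). Elovl6 had 127, 11.4 and 66.5 FPKM in Tert-/- livers, against 26.5, 38.9 and 33.7 FPKM in WT livers, and Acaca (acetyl-CoA carboxylase) had 57.9, 15.03 and 40.9 FPKM in Tert-/- livers, against 28.5, 29.6 and 29.2 FPKM in WT livers; both rose without replicate 2 (Elovl6 1.46 without and 0.50 with replicate 2, Acaca 0.72 without and 0.18 with replicate 2) and were lowest in it. Fasn, the fatty acid synthase, overlapped (491, 86.7 and 250.1 FPKM in Tert-/- livers, 249.8, 177 and 378 FPKM in WT livers). Its activator Srebf1 did not pass in either fit.

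Of 24 glucose genes tested, 4 were higher and none lower without replicate 2, against 2.15% and 5.14% of all genes. With all 6 libraries 12 of the 24 had a positive difference, and the median was -0.07 with all 6 libraries and 0.21 without replicate 2. Gys2, the liver glycogen synthase, had 88.5, 66.5 and 115 FPKM in Tert-/- livers, against 44.6, 39.3 and 46.2 FPKM in WT livers. It did not overlap and differed by 1.01 ± 0.24 with all 6 libraries (adjusted p = 0.172) and 1.204 ± 0.15 without replicate 2 (adjusted p = 0.0141). Slc37a4, which carries glucose 6-phosphate into the endoplasmic reticulum, had 169, 105 and 179.7 FPKM in Tert-/- livers, against 91.4, 73.1 and 84.6 FPKM in WT livers. The groups of Slc37a4 did not overlap and it differed by 0.82 ± 0.25 with all 6 libraries (adjusted p = 0.2302) and 1.07 ± 0.13 without replicate 2 (adjusted p = 0.0139). Pklr, the liver pyruvate kinase, had 512, 39.3 and 286 FPKM in Tert-/- livers, against 126, 117 and 145 FPKM in WT livers, and Slc2a2 (GLUT2) had 125, 38.5 and 163 FPKM in Tert-/- livers, against 75.9, 57.3 and 70.9 FPKM in WT livers. In both, replicate 2 was the lowest of the 6, and both rose without it (Pklr 1.56 without and 0.48 with replicate 2, Slc2a2 1.07 without and 0.45 with replicate 2). Igfbp1, an insulin-repressed gene, was lower without overlap, at 68.5, 100.3 and 25.1 FPKM in Tert-/- livers, against 492, 109 and 286 FPKM in WT livers, and did not pass (-2.55 ± 0.66 without replicate 2, adjusted p = 0.0637, and -2.13 with it, adjusted p = 0.237).

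Of 20 bile acid genes, 3 were higher and 1 lower without replicate 2, against 2.15% and 5.14% of all genes. Cyp7a1, the rate-limiting enzyme of bile acid synthesis, had 74.3, 11.8 and 115 FPKM in Tert-/- livers, against 21.2, 12.8 and 32.9 FPKM in WT livers. Replicate 2 was below every WT library and the others above, and Cyp7a1 differed by 1.14 ± 0.79 with all 6 libraries (adjusted p = 0.542) and 2.10 ± 0.37 without replicate 2 (adjusted p = 0.0294). Fgfr4, the receptor through which gut FGF15 represses Cyp7a1, had 31.7, 28.4 and 30.4 FPKM in Tert-/- livers, against 93.3, 67.7 and 70.6 FPKM in WT livers. All Tert-/- libraries were alike and below all WT libraries, and Fgfr4 differed by -1.31 ± 0.19 with all 6 libraries (adjusted p = 0.0834) and -1.27 ± 0.16 without replicate 2 (adjusted p = 0.0144). The uptake carriers Slc10a1 (NTCP) and Slco1b2 rose without replicate 2 (Slc10a1 0.76 without and 0.67 with replicate 2, Slco1b2 0.78 without and 0.21 with replicate 2), and Slc10a1 was higher in all 3 Tert-/- libraries.

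Other metabolic lists held 0 to 3 calls each without replicate 2, against 7.28% of all genes called in either direction. Of 29 P450 genes of foreign compound metabolism, only Cyp2a5 rose without replicate 2. Of 33 PPAR alpha targets and fatty acid oxidation genes, none passed in either fit (median 0.01 with all 6 libraries and 0.13 without replicate 2), Fabp1 being the most abundant. Of 26 cholesterol genes, Stard4 rose and Insig2 and Srebf2 fell without replicate 2; Insig2, which holds SREBP in the endoplasmic reticulum, had 121, 87.1 and 164 FPKM in Tert-/- livers, against 259, 279 and 349.8 FPKM in WT livers. Gclc, the catalytic subunit that limits glutathione synthesis, had 151, 60.03 and 143 FPKM in Tert-/- livers, against 303, 262 and 334 FPKM in WT livers. Each Tert-/- value of Gclc was below each WT value, and it fell without replicate 2 (-1.01 ± 0.14 without replicate 2, adjusted p = 0.01697, and -1.44 with it, adjusted p = 0.179), as the only one of 24 NRF2 and glutathione genes. Cbs, of homocysteine breakdown, was the only one of 26 urea cycle and amino acid genes to pass (-1.01 ± 0.12 without replicate 2, adjusted p = 0.0139, and -0.73 with it, adjusted p = 0.295), and Stat5b, which carries the growth hormone signal, fell too (-0.69 ± 0.12 without replicate 2, adjusted p = 0.0299, and -0.995 with it, adjusted p = 0.219), as did Elovl3, among 31 sex-biased and growth hormone dependent genes with no other call. None of 30 acute phase genes passed; the most abundant were Hp and Hpx, and the median was -0.45 with all 6 libraries and -0.49 without replicate 2.

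Genes of the mitochondrial respiratory chain encoded in the nucleus were higher in Tert-/- livers as a group. Of 76, all tested, 16 were higher and none lower without replicate 2, against 2.15% and 5.14% of all genes; none passed with all 6 libraries. The groups did not overlap for 56 of them, all higher in Tert-/- livers, against 6.64% of all genes, and the median was 0.57 with all 6 libraries and 0.36 without replicate 2. Ndufa12, of complex I, had 85.8, 130.0 and 71.5 FPKM in Tert-/- livers, against 33.4, 37.2 and 36.8 FPKM in WT livers. Replicate 2 was the highest, and Ndufa12 differed by 1.35 ± 0.25 with all 6 libraries (adjusted p = 0.137) and 1.11 ± 0.12 without replicate 2 (adjusted p = 0.0139). Atp5f1, of ATP synthase, had 246, 263 and 264 FPKM in Tert-/- livers, against 161, 173 and 174 FPKM in WT livers, with all 3 Tert-/- libraries alike, and differed by 0.60 ± 0.16 with all 6 libraries (adjusted p = 0.197) and 0.59 ± 0.11 without replicate 2 (adjusted p = 0.0319). Ndufb8 (0.59 without and 0.70 with replicate 2) and Ndufb10 (0.60 without and 0.88 with replicate 2) rose without replicate 2 as well. Of 15 genes encoded in the mitochondrial genome, mt-Atp8 alone passed, lower without replicate 2 (-1.43 ± 0.23 without replicate 2, adjusted p = 0.0259, and -1.999 with it, adjusted p = 0.178). Most of the list went the other way in that fit. Without replicate 2, 13 of the 15 had a positive difference and the median was 0.33. With all 6 libraries 7 did, and the median was -0.02. The summed level of the 15 was 36966, 20738 and 44196 FPKM in Tert-/- livers, against 28154, 35172 and 34544 FPKM in WT livers, lowest in replicate 2. The gene mt-Atp8 overlaps mt-Atp6, so its value is uncertain.

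Of 78 cytosolic ribosomal protein genes tested, all 78 had a positive difference with all 6 libraries and 67 without replicate 2. None passed in either fit; 21 were higher without overlap, against 6.64% of all genes, and the median was 0.50 with all 6 libraries and 0.18 without replicate 2. Their summed level was 23142, 41062 and 18511 FPKM in Tert-/- livers, against 17874, 19858 and 17527 FPKM in WT livers, with replicate 2 the highest. Rplp1 and Rps2 were the most abundant. Both this list and the respiratory chain hold short transcripts: across 11782 genes with a length, Spearman's rho between the log2 difference and transcript length was -0.416 with all 6 libraries and -0.104 without replicate 2, given as a description over genes that share libraries. The part of transcript length in these 2 lists was not tested.

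**Figure D5:**
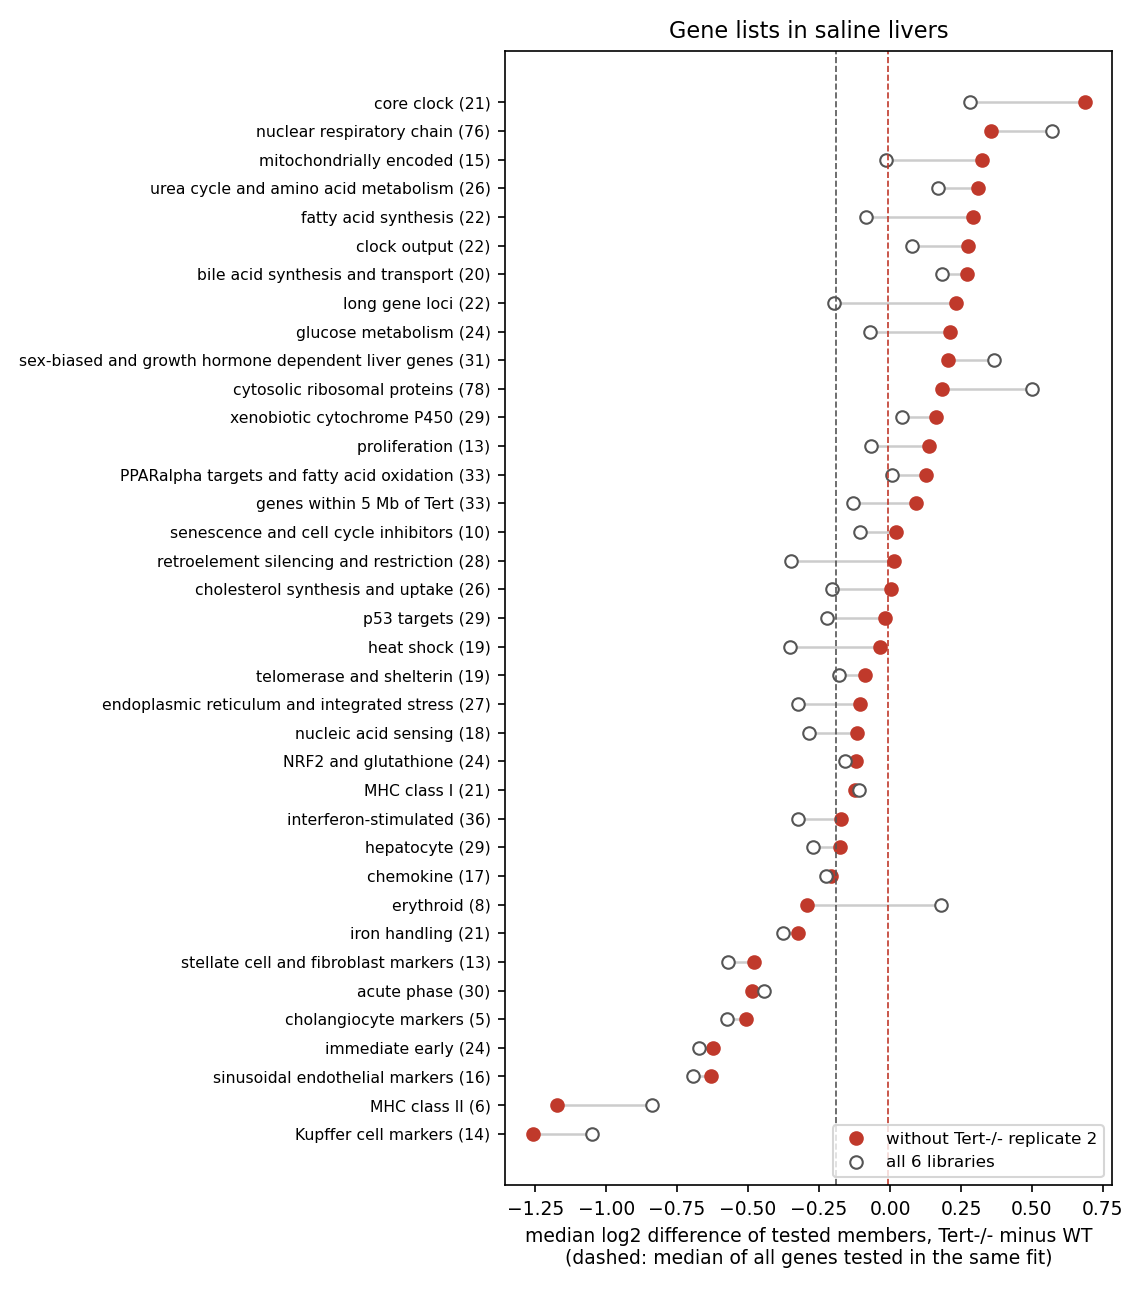
Median log2 difference (Tert-/- minus WT, x axis) of the tested members of each gene list with at least 5 of them, with all 6 libraries (open) and without Tert-/- replicate 2 (red); the number of members is in brackets, and dashed lines mark the medians of all tested genes, -0.19 and -0.01. Core clock and respiratory chain genes lie to the right and Kupffer cell markers, at -1.05 and -1.26, furthest to the left.

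The study's title names endogenous retroviruses and immune suppression, and the lists in this paragraph touch on both. They held 0 to 3 calls each without replicate 2, where 2.15% of all genes were higher and 5.14% lower, and counts this near those shares are no result about the lists. Of 36 interferon-stimulated genes tested, none was higher and 3 were lower without replicate 2, Lgals3bp (-0.85 ± 0.10 without replicate 2, adjusted p = 0.0139, and -0.68 with it, adjusted p = 0.227), Cmpk2 (-0.77 ± 0.14 without replicate 2, adjusted p = 0.0319, and -0.90 with it, adjusted p = 0.157) and Oas1a (-0.76 ± 0.15 without replicate 2, adjusted p = 0.0362, and -0.42 with it, adjusted p = 0.565); the median was -0.33 with all 6 libraries and -0.17 without replicate 2. Of 18 nucleic acid sensing genes none passed, the most abundant being Rnaseh2c and Irf3. Of 28 genes that silence or restrict retroelements, only Mphosph8, of the HUSH complex, passed, higher without replicate 2 (0.77 ± 0.12 without replicate 2, adjusted p = 0.02495, and 0.08 with it, adjusted p = 0.952), with 14.2, 2.82 and 16.2 FPKM in Tert-/- livers, against 8.01, 8.16 and 9.18 FPKM in WT livers. None of the 21 listed class I genes of the major histocompatibility complex passed. H2-Bl (above), a class I gene outside that list, rose without replicate 2. In the list, H2-K1 and B2m were the most abundant (H2-K1 -0.02 without and 0.08 with replicate 2, B2m 0.04 without and 0.09 with replicate 2). Of 17 chemokine genes tested, Ccl22 (above) rose and Ccl2, the monocyte chemoattractant, fell without replicate 2, with 0.369, 0.09902 and 0.148 FPKM in Tert-/- livers, against 3.52, 2.52 and 1.65 FPKM in WT livers. Endogenous retroviral transcripts themselves were not analysed here.

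Beyond Tert, the telomerase and shelterin genes gave no call. Of 19 tested, Tert alone passed, without replicate 2, and the median was -0.18 with all 6 libraries and -0.09 without replicate 2; Terc was under the filter. Dkc1, which binds Terc, had 16.7, 6.58 and 19.2 FPKM in Tert-/- livers, against 11.8, 14.2 and 14.7 FPKM in WT livers. Terf1 and Terf2, the shelterin proteins that bind telomere repeats, did not pass (Terf1 0.19 without and -0.04 with replicate 2, Terf2 -0.09 without and -0.18 with replicate 2). Stress genes gave 1 call in each list without replicate 2, both higher: Hspd1 (HSP60) among 19 heat shock genes (0.52 without and 0.13 with replicate 2) and Dnajb9 among 27 genes of endoplasmic reticulum and integrated stress (0.94 without and 0.01 with replicate 2). For both, replicate 2 was the lowest library. Of 22 long genes, only Immp2l passed, higher without replicate 2 (0.74 without and 0.88 with replicate 2). Shares over all genes in that fit were 2.15% higher and 5.14% lower. A single call this near them is no result about the stress and long gene lists.

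Genes near Tert on chromosome 13 were looked at because a targeted allele carries its neighbouring DNA with it. Of 95 genes that start within 5 Mb of Tert, 33 were tested; without replicate 2, 3 were higher and 1, Tert, was lower, against 2.15% and 5.14% of all genes. Glrx (chromosome 13, 75839868 to 75850151), glutaredoxin 1, had 52.5, 47.97 and 54.7 FPKM in Tert-/- livers, against 13.5, 14.8 and 25.8 FPKM in WT livers. All 3 Tert-/- libraries were alike and above all WT libraries, and Glrx differed by 1.52 ± 0.27 with all 6 libraries (adjusted p = 0.124) and 1.58 ± 0.26 without replicate 2 (adjusted p = 0.0261). In the ENU libraries Glrx had 30.5, 27.9 and 28.9 FPKM in Tert-/- livers, against 10.2, 9.81 and 17.3 FPKM in WT livers, again without overlap. Rhobtb3 (0.66 without and 0.21 with replicate 2) and Srd5a1, a steroid 5 alpha-reductase (0.68 without and 0.33 with replicate 2), rose without replicate 2, and the groups overlapped with it. No sequence difference between the strains of origin was examined here.

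The ENU livers gave a second, separate set of 3 Tert-/- and 3 WT libraries, with which the saline differences can be set side by side. Of the 859 genes called without replicate 2 in saline, 738 (85.9%) had the same sign in ENU, against 65.5% of all genes tested. Npas2 had 0.016, 0.172 and 0 FPKM in Tert-/- livers, against 3.61, 0.297 and 0.0397 FPKM in WT livers after ENU, and Arntl had 1.77, 2.94 and 0.843 FPKM in Tert-/- livers, against 10.1, 3.32 and 2.14 FPKM in WT livers. Tubb2a had 29.2, 61.5 and 24.9 FPKM in Tert-/- livers, against 91.1, 35.8 and 41.04 FPKM in WT livers and Elovl3 17.9, 79.7 and 12.7 FPKM in Tert-/- livers, against 145, 34.2 and 9.64 FPKM in WT livers after ENU. The groups overlapped after ENU for all 4 of these genes, and WT replicate 1 was the highest library for each. Other genes kept the saline direction without overlap after ENU, among them Tert, Ciart, Abtb2, Klf2, Irf2bp2 and Gclc. Tert had 1.62, 1.23 and 1.11 FPKM in Tert-/- livers, against 6.23, 5.69 and 4.70 FPKM in WT livers after ENU.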

How the data were processed

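Liver RNA of 12 mouse libraries was extracted with TRIzol and made into libraries with an Illumina kit, per the labels' protocols. The authors deposited 1 table of FPKM per gene; HISAT2, HTSeq and the mouse build mm10 are named in the submitters' processing notes, without versions. The sources used here give neither strand setting nor annotation, so antisense and overlapping genes and near-identical copies are uncertain. All 12 columns of values were matched to a library by title. The values came out as whole reads (within 0.01 of a read) for 26523 of the 26524 genes above 0, from mean transcript lengths of GENCODE M21 for 21776 genes and from the smallest whole-number length for 4747, which gave 31725120 to 43680374 reads per library.

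Genes reaching 1 FPKM in 3 or more of the 6 saline libraries were compared as log2(FPKM + 1) with limma 3.58.1 in R 4.3.3, with a mean-variance trend and no block, two-sided, and p-values were adjusted by Benjamini-Hochberg over all 11794 genes (threshold 0.05). Differences on this scale understate the change of genes at low FPKM. The same fit was made without Tert-/- replicate 2. The script was tested on simulated data. No pair of libraries of a group was a duplicate (mean chi-square per gene 68.2 to 516). Same-numbered libraries did not deviate together (r = 0.14, -0.002 and -0.04), so replicate numbers were not taken as pairs.

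The genes and lists were chosen with earlier results of these data known, and support nothing on their own. The genes named were Tert and, in each direction, the 12 with the largest difference among those past the threshold with all 6 libraries, no overlap between groups, a mean of at least 1 FPKM in the higher group, the same direction without replicate 2 and a curated symbol. Free places went by unadjusted p to genes not past the threshold. The 10 largest in each direction without replicate 2 were added, with up to 4 called members of each list (otherwise the 2 most abundant) and called genes within 5 Mb of Tert. Genes outside that rule (Rora, Per1, Nr1d1, Nfil3, Clock, Hlf, Egr1, Fos, Fasn, Srebf1, Igfbp1, Hamp, Hamp2, Dkc1, Terf1, Terf2, C1qa, Clec4f, Alb and other list members) were picked after their values were seen. Promoter sequences are those of RefSeq on GRCm38.p6. Other pseudocounts, filters, scalings, library weights, leaving out each library, a replicate block, all 12 libraries in 1 fit and voom on the recovered reads were tried. Some list members enter the counts and medians but are not reported one by one here.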

Additional observations from a re-analysis of the deposited data

How the results depend on the processing

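With all 6 libraries, 1 gene was called as reported. Leaving out each library in turn gave 0 to 859 calls, the highest without Tert-/- replicate 2. A replicate block, a pseudocount of 0.1, no filter beyond a value above 0 (24623 genes) and a mean of at least 5 FPKM (7829 genes) gave 0 calls each; at 5 FPKM Arntl was not among the genes tested. Median-ratio rescaling and voom gave 1, no trend 4, quantile normalization 19, library weights 20 and all 12 libraries in 1 fit 649 (96 higher, 553 lower). The library weights were 0.044, 0.154 and 1.27 in Tert-/- replicates 1, 2 and 3, and 4.13 to 5.67 in WT libraries. Replicate 1 was thus weighted lowest, below replicate 2. The replicate numbers were not taken as pairs, and under the block Arntl had an adjusted p of 0.0997. Alternatives without replicate 2, chosen after seeing the data, gave 836 calls with median-ratio rescaling, 837 with quantile normalization, 862 with voom, 852 with a pseudocount of 0.1 and 790 at 5 FPKM, against 859. Of those 859 calls, 770, 757 and 724 were shared with median-ratio rescaling, quantile normalization and voom. Quantile normalization called 295 higher and 542 lower, voom 326 higher and 536 lower, and median-ratio rescaling 318 higher and 518 lower.

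Tert was lower in every fit. Leaving out each library gave differences of -1.50 to -1.16. It was -1.27 with all 12 libraries (adjusted p = 0.015), and without replicate 2 it passed at -1.16 with median-ratio rescaling, -1.11 with quantile normalization, -2.09 with voom and -1.98 with a pseudocount of 0.1; at 5 FPKM it was not tested. Rescaling moved the median of all genes with 6 libraries to 0.02 (median-ratio), -0.01 (quantile) and 0.02 (voom), against -0.19 as deposited. Relative to those, the respiratory chain median was 0.80, 0.49 and 0.82 and the Kupffer cell median -0.82, -0.86 and -0.96, so both kept their direction. The Dbp to Arntl difference lay between 6.52 and 7.65 on leaving out each library and was 8.57 with a pseudocount of 0.1. The cause of these changes was not tested.

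Leaving out each library in turn turned the sign of these genes, with lowest and highest values of -0.22 to 0.72 for Acaca, -0.29 to 0.10 for Car3, -0.30 to 0.28 for Cela1, -0.59 to 0.94 for Dnajb9, -0.22 to 1.46 for Elovl6, -0.0243 to 0.21 for H2-K1, -0.56 to 0.92 for Hba-a1, -0.35 to 0.94 for Hbb-bs, -0.46 to 0.054 for Hpx, -0.10 to 0.52 for Hspd1, -0.21 to 0.19 for Irf3, -0.31 to 0.77 for Mphosph8, -0.17 to 1.29 for Per2, -0.27 to 1.56 for Pklr, -0.0304 to 0.66 for Rhobtb3, -1.08 to 0.92 for Scd1, -0.11 to 0.78 for Slco1b2 and -0.30 to 0.71 for Stard4. Median-ratio rescaling turned the sign for Car3 (0.11), Hpx (0.0802) and Tm4sf4 (0.19). Quantile normalization turned the sign for B2m (-0.0092), H2-K1 (-0.0059) and Tm4sf4 (0.0115). Library weights turned the sign for Cela1 (-0.28), H2-K1 (-0.11), Irf3 (-0.20) and Scd1 (0.37). Voom on recovered reads turned the sign for Car3 (0.12), Hpx (0.0929) and Tm4sf4 (0.19). A pseudocount of 0.1 turned the sign for Dnajb9 (-0.0176). Without replicate 2, the rescalings, voom, the pseudocount of 0.1 and the filter at 5 FPKM gave the sign opposite to that with all 6 libraries for Cela1 (-0.25, -0.26, -0.29 and -0.28), Hba-a1 (-0.52, -0.56, -0.53 and -0.57), Hbb-bs (-0.31, -0.38, -0.32, -0.36 and -0.35), Irf3 (-0.17, -0.22, -0.18 and -0.21) and Scd1 (0.96, 0.89 and 0.92), as the fit without replicate 2 did. For H2-K1 this held with quantile normalization (-0.0297), the pseudocount of 0.1 (-0.0243) and the filter at 5 FPKM (-0.0243) only.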
